A study of Mus musculus with 3 samples.

Results

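The 7 troponin genes *Tnnt1*, *Tnnt2*, *Tnnt3*, *Tnni1*, *Tnni2*, *Tnnc1* and *Tnnc2* were taken by symbol from single-cell counts of the postnatal day 7 (P7) cerebellum, and all 7 were among the 16181 genes listed. Drop-seq, which captures single cells in droplets and counts RNA molecules by unique molecular identifiers (UMIs), was run on part of the cerebellum of each of 3 Eed cKO mice, 1 mouse per library. Their genotype was Math1-Cre/Eed fl/fl: the *Math1* (*Atoh1*) promoter drives Cre in the cerebellar granule neuron progenitor (CGNP) lineage, where both floxed alleles of *Eed*, a subunit of the Polycomb repressive complex 2, are recombined, while cells outside that lineage keep them. All 3 mice form 1 group. No mouse of another genotype was analysed here, so every comparison is between cells of the same mice and none is between genotypes.

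Troponin sits on the thin filament of striated muscle and makes contraction depend on calcium. It has 3 subunits: troponin T (TnT) anchors the complex to tropomyosin, troponin I (TnI) holds the actin-myosin interaction off, and troponin C (TnC) binds calcium and releases that inhibition. Each subunit has isoforms named for the adult muscle they mark. *Tnnt1* and *Tnni1* encode the slow skeletal isoforms of TnT and TnI, *Tnnt3*, *Tnni2* and *Tnnc2* the fast skeletal isoforms, *Tnnt2* the cardiac TnT, and *Tnnc1* a TnC shared by slow and cardiac muscle. Developing skeletal muscle also makes *Tnnt2*, and embryonic fibres carry slow and fast isoforms side by side, so the adult names do not by themselves assign a fibre type. The cerebellum has no striated muscle of its own.

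In the mouse genome (GRCm38, GENCODE M21) the genes of TnI and TnT lie in pairs. *Tnni1* (chr1:135779434-135810989) and *Tnnt2* (chr1:135836354-135852260) share the plus strand with a gap of 25.4 kb, and *Tnni2* (chr7:142441808-142444410) and *Tnnt3* (chr7:142498836-142516009) share it with a gap of 54.4 kb. *Tnnt1* (chr7:4504570-4516382, minus strand) lies 1.92 kb from *Tnni3*, which was not analysed here. The TnC genes stand alone, *Tnnc1* at chr14:31208312-31211729 on the plus strand and *Tnnc2* at chr2:164777161-164779967 on the minus strand. RefSeq promoter sequences (GRCm38.p6, 250 bases before to 50 after the start) matched 5 of the 7 members; *Tnni2* and *Tnnt3* had no entry.

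The promoters of *Tnnt2* and *Tnni1*, the members seen in the most of the muscle-like cells described below, and of *Tnnc1* and *Tnnc2*, which within those cells were seen almost only where the fast light chain gene *Mylpf* was, are shown 5′ to 3′ with each E-box (CANNTG, the motif bound by myogenic bHLH factors, which reads the same on both strands) in capitals.
Tnnt2, chr1:135836084-135836383, plus strand: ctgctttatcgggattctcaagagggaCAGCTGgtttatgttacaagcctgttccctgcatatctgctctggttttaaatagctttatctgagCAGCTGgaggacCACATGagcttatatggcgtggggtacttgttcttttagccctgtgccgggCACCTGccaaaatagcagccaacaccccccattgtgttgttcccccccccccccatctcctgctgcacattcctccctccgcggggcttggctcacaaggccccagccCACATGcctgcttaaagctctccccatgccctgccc
Tnni1, chr1:135799171-135799470, plus strand: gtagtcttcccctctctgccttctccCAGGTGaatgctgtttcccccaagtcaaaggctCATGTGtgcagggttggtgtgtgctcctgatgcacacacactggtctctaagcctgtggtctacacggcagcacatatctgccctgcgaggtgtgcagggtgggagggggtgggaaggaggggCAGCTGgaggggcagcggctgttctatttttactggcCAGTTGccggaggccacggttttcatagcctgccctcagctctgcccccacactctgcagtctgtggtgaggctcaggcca
Tnnc1, chr14:31208062-31208361, plus strand: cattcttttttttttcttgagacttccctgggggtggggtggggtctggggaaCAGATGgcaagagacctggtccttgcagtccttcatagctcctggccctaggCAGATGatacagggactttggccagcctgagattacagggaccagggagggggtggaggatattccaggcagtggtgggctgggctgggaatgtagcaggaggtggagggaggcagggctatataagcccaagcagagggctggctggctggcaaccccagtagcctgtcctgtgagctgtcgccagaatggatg
Tnnc2, chr2:164779685-164779984, minus strand: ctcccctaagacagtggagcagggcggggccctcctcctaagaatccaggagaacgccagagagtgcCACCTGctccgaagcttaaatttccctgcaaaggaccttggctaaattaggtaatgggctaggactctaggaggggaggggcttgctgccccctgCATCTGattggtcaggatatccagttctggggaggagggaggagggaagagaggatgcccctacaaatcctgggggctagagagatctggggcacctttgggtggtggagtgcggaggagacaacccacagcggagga
The *Tnnt2* promoter held 5 E-boxes and that of *Tnni1* held 4, whereas *Tnnc1*, *Tnnc2* and *Tnnt1* held 2 each. Of all 32851 promoters of the same length, 72.3% held at least 1 E-box and 17.6% held 3 or more. The form CAGCTG occurred 2 times in *Tnnt2* and 1 time in *Tnni1*, and in 16.3% of all promoters. CATTCC on either strand, the core of the MCAT motif, occurred 1 time each in *Tnnt2* and *Tnnc1* and in 14.7% of all promoters, and TATAAA occurred in *Tnnt1* and in 13.6%. The MEF2 motif was in none of the 5 and in 3.19% of all promoters. For *Tnni1* the table gave 2 starts, and the one shown lies 19987 bases inside the gene's GENCODE start.

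After filters on depth, gene number and mitochondrial share, 2373 cells remained (918, 547 and 908 in mice 1, 2 and 3), with median depths of 919.5, 857 and 1408 UMIs. Clustering without the troponins and the genes of the thin filament, slow, fast, cardiac and fibre type lists below gave 15 clusters of 27 to 353 cells. *Myh3* and *Ttn*, which are among the muscle markers, and *Myh8* were not left out. One of them, of 76 cells (27, 21 and 28 per mouse, 3.20% of all), carried 13 of 16 skeletal muscle markers and is called muscle-like. Its summed marker level was 12136 to 15855 CPM (UMIs per 1000000 UMIs of the summed cells) across the mice, against 77.8 to 114 CPM in all other cells. Of the heart muscle markers, *Myh6* had 10 UMIs, *Nkx2-5* 2 and *Gata4* 1 in these cells; of the smooth muscle markers *Myh11* had 0, *Tagln* 1 and *Mylk* 1, with 74 of *Acta2*, which developing skeletal muscle also expresses. No cell barcode was shared between libraries.

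All 7 troponin genes were higher in muscle-like cells than in all other cells, in 3 of 3 mice. Muscle-like cells held 2361 of the 2601 troponin UMIs of all cells that passed the filters, 90.8%, from 76.7% of those of *Tnnc1* to 95.8% of those of *Tnnt2*. As each UMI marks 1 captured transcript end, levels in CPM were not divided by gene length.

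For cardiac TnT, the *Tnnt2* level in muscle-like cells was 2702, 2465 and 3665 CPM in mice 1, 2 and 3, against 6.23, 5.77 and 7.56 CPM in all other cells. Slow TnT, *Tnnt1*, stood at 1276, 664 and 2350 CPM against 4.15, 5.77 and 13.1 CPM. Fast TnT, *Tnnt3*, was the lowest member, at 826, 190 and 475 CPM, against 6.23, 0 and 4.13 CPM. Within the muscle-like cells every mouse had the order *Tnnt2*, *Tnnt1*, *Tnnt3*. In mouse 2, 0 of 526 other cells had a *Tnnt3* UMI, which by a limit of 3 cells (3 of 526) allows a share of up to 0.570% at this depth.

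Among the inhibitory subunits, slow *Tnni1* was at 3553, 2749 and 3166 CPM in muscle-like cells of mice 1, 2 and 3, and 11.4, 5.77 and 14.4 CPM elsewhere. Fast *Tnni2* was at 1301, 711 and 1072 CPM, and 8.30, 3.85 and 4.81 CPM elsewhere. In muscle-like cells *Tnni1* exceeded *Tnni2* in each mouse. The mean level of *Tnni1* was 3156 ± 402 CPM and that of *Tnni2* 1028 ± 297 CPM (SD, n = 3).

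The calcium-binding subunit had the reverse order. Fast *Tnnc2* was the most abundant member, at 6455, 2844 and 4908 CPM in muscle-like cells against 38.4, 7.70 and 13.1 CPM elsewhere. In mouse 2 that rank was not resolved, at 60 *Tnnc2* UMIs beside 58 of *Tnni1*. Slow and cardiac *Tnnc1* was at 1827, 806 and 1705 CPM against 39.4, 15.4 and 16.5 CPM. *Tnnc1* had the highest level outside muscle-like cells of any member.

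**Figure D1:**
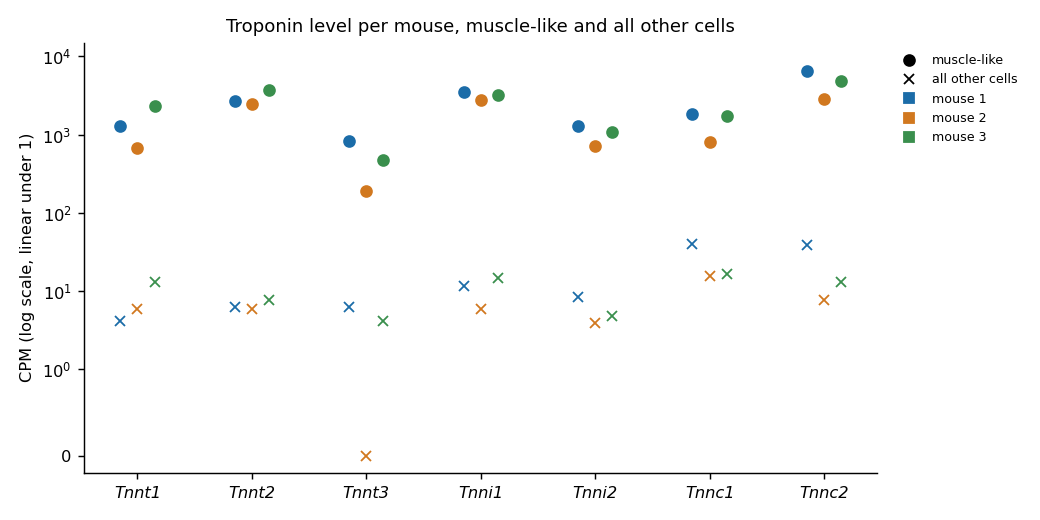
Level of each troponin gene in CPM (log axis, linear under 1) in muscle-like cells (circles) and all other cells (crosses), 1 point per mouse. Circles lie between 190 and 6455 and crosses between 0 and 39.4. *Tnnc2* has the highest circle in each mouse, in mouse 2 by 60 UMIs to 58 of *Tnni1*.

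The sums of each mouse entered edgeR's quasi-likelihood test, with Benjamini-Hochberg adjustment over 5846 genes, of which 7.32% were higher in muscle-like cells and 11.7% lower. All 7 members were higher, but they passed the filter on low counts through the muscle-like sums. In the comparison below that leaves these cells out, 0 members passed it. The count of 7 was thus largely set by the filter and cannot be weighed against that background. The log2 fold change was 8.75 (SE 0.37) for *Tnnt2* with an adjusted p of 2.03e-27, and 8.08 (SE 0.35) for *Tnni1* with an adjusted p of 4.73e-27. For *Tnnc2* it was 7.88 (SE 0.39), for *Tnnt1* 7.50 (SE 0.41), for *Tnni2* 7.47 (SE 0.39) and for *Tnnt3* 6.98 (SE 0.47). The smallest was that of *Tnnc1*, 5.98 (SE 0.35), with an adjusted p of 2.04e-21 in edgeR's test. All 7 stayed past the threshold in each of 14 alternatives, including those without 1 mouse.

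Isoform shares differed by subunit (values below are percent of the subunit's UMIs in muscle-like cells, with exact Clopper-Pearson 95% intervals that cover counting error only). *Tnnt2* made up 56.3% (48.9 to 63.4) of 192 TnT UMIs in mouse 1, 74.3% (62.4 to 84.0) of 70 in mouse 2 and 56.5% (52.1 to 60.7) of 533 in mouse 3. *Tnnt1* gave 26.6%, 20% and 36.2%, and *Tnnt3* 17.2%, 5.71% and 7.32%. The cardiac isoform was therefore the majority of TnT transcripts in each mouse, at 62.3% ± 10.3 (SD, n = 3), and the fast isoform the minority, at 10.1% ± 6.2.

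For TnI the fast share was steadier. *Tnni2* was 26.8% (20.7 to 33.6) of 194 UMIs in mouse 1, 20.5% (12 to 31.6) of 73 in mouse 2 and 25.3% (20.8 to 30.2) of 348 in mouse 3, a mean of 24.2% ± 3.3 (SD, n = 3). For TnC, *Tnnc2* was 77.9% (73.1 to 82.3) of 331 UMIs, 77.9% (67.0 to 86.6) of 77 and 74.2% (70.3 to 77.8) of 543, a mean of 76.7% ± 2.1. The same summed cells thus carried mostly slow TnI and mostly fast TnC.

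Within mice, the fast share of TnC exceeded that of TnI by 51.1, 57.4 and 48.9 percentage points, and the fast share of TnI exceeded that of TnT by 9.62, 14.8 and 18 points. TnC exceeded TnT by 60.8, 72.2 and 66.9 points. The order TnC, TnI, TnT held in 3 of 3 mice. An exact two-sided sign-flip permutation test gave p = 0.25 for each of 4 such differences (*Tnnt2* against *Tnnt1* being the fourth, 34.7 ± 17.6 points; adjusted p = 0.25), the smallest p that 3 mice allow. Some alternatives moved the TnC and TnI shares by more than their SD over mice: with each cell weighted equally the share was 16.6% for *Tnni2* and 82.9% for *Tnnc2*, and with no upper limit on UMIs per cell the *Tnnc2* share was 66.7%. That limit bears most on mouse 2, where barcodes it left out held 16 and 8 *Tnnt3* UMIs and 38 and 62 of *Tnnc1*. The retained muscle-like cells of mouse 2 held 4 *Tnnt3* and 17 *Tnnc1* UMIs.

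**Figure D2:**
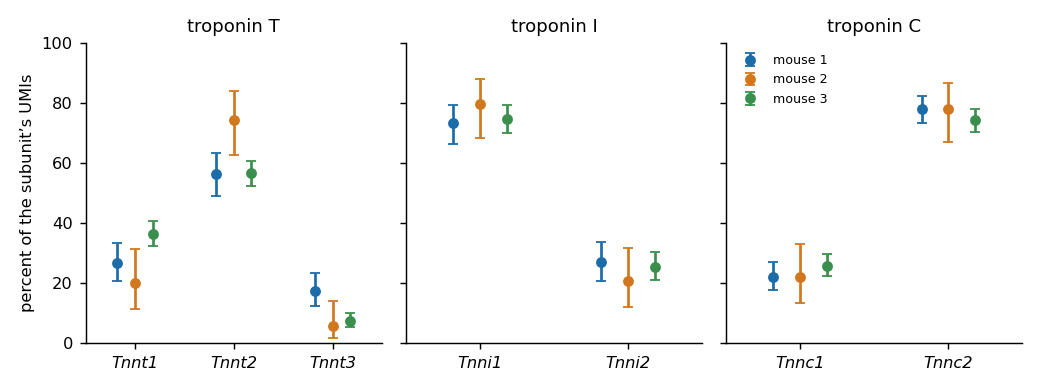
Share of each subunit's UMIs that came from each isoform in muscle-like cells, 1 point per mouse with its 95% Clopper-Pearson interval. *Tnnc2* lies at 74.2% to 77.9% of TnC in all 3 mice, whereas *Tnni2* lies at 20.5% to 26.8% of TnI and *Tnnt3* at 5.71% to 17.2% of TnT.

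Single cells differed widely. Of the 76 muscle-like cells, *Tnni1* had a UMI in 46, *Tnnt2* in 44, *Tnnt1* in 38, *Tnnc2* in 27, *Tnni2* in 24, *Tnnt3* in 19 and *Tnnc1* in 19. The 3 genes seen in the most cells were thus a slow TnI, the cardiac TnT and the slow TnT, while *Tnnc2*, the most abundant, was seen in 27. Some UMIs in droplets come from free RNA: in endothelial-like cells, whose median depth was 1208.5 UMIs against 1362.5 in muscle-like cells, 0 of 52 had a UMI of any member but *Tnnc2*, seen in 2. The share of cells with a UMI of any member was 72.4% in muscle-like cells, and from 3.85% in endothelial-like cells to 22.2% in pericyte-like cells (27 cells, median 753 UMIs) among the other groups; in the unnamed cluster, whose median depth of 1393 UMIs was nearest, it was 16.5% of 170 cells.

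No troponin UMI was seen in 21 muscle-like cells, 1 to 3 members in 28, 4 to 6 in 14 and all 7 in 13. By mouse, 5, 9 and 7 cells had none and 5, 2 and 6 had all 7. The 13 cells with all 7 held 1639 of the 2361 troponin UMIs, 69.4%, so the summed levels above mainly describe few cells. Their median depth was 2885 UMIs against 906 in the cells with none, and the part of depth in these counts was not tested beyond thinning. Total UMIs ran from 505 to 3904 in the cells with none and from 1111 to 6586 in those with all 7. With each cell thinned to 500 UMIs, 26 cells had no member and 5 had all 7. The share with no troponin UMI, 28.8% as a mean over mice, ranged from 17.0% in cells with at least 1000 UMIs to 35.2% after thinning, and was 21.8% without mouse 2.

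**Figure D3:**
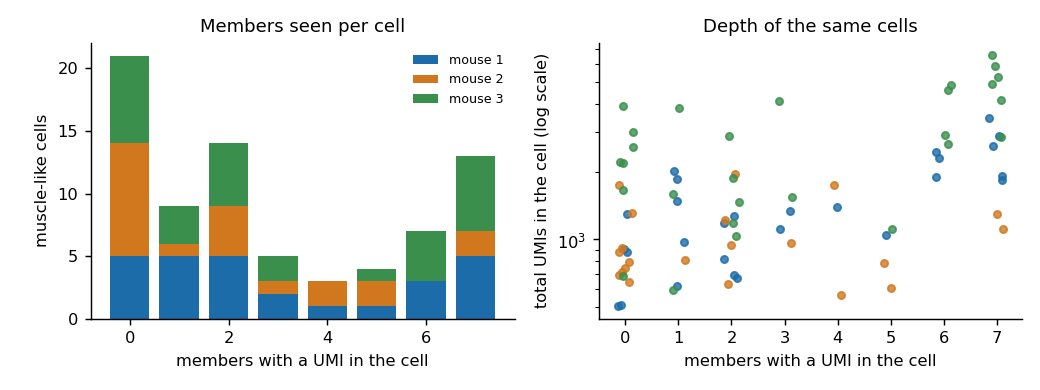
Left, number of muscle-like cells by how many of the 7 members had a UMI, stacked by mouse. Right, total UMIs of the same cells (log axis), in which the 21 cells with no member reach up to 3904 UMIs and the 13 cells with all 7 range from 1111 to 6586.

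Detection was largely nested, with the fast isoforms and TnC mostly in cells that also had slow or cardiac TnT and slow TnI. Each of the 19 cells with *Tnnt3* also had *Tnnt1*, *Tnnt2* and *Tnni1*. Each of the 19 cells with *Tnnc1* had *Tnnt1*, and each of the 27 with *Tnnc2* had *Tnni1*. For TnT, 32 cells had only slow or cardiac isoforms, 19 had both these and the fast one, and 0 had the fast one alone. For TnI, 23 had only slow, 23 both and 1 only fast. TnC went the other way, with 1 cell with only *Tnnc1*, 9 with only *Tnnc2* and 18 with both. Thinned to 500 UMIs, fast without slow was seen in 1 cell for TnT and 2 for TnI, and *Tnnc2* alone in 9.

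By subunit, 26 cells had TnT, TnI and TnC, 17 had TnT and TnI without TnC, and 2 had TnC with only 1 of TnT and TnI (1 cell with *Tnnc2* lacked TnT and 1 with *Tnnc1* lacked TnI). TnC without both TnT and TnI was seen in 0 cells. The 17 cells were spread as 6, 6 and 5 over mice 1, 2 and 3. Their median depth was 1216 UMIs, against 2533.5 in the 26 cells with all 3 subunits.

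The number of members seen divided the muscle-like cells at the same place as *Mylpf*, the fast skeletal myosin regulatory light chain gene, which was also left out of the clustering. All 27 cells with 4 or more members had a *Mylpf* UMI (10, 6 and 11 per mouse), and 0 of the 49 cells with fewer did, which allows up to 6.12% of such cells (3 of 49) to have a UMI at this depth. *Mylpf* was singled out after its values were seen. The cells with it had a median of 2459 UMIs and those without it 1181, and what depth contributes to the split was not tested.

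In the 49 cells without *Mylpf*, TnC made up few of the troponin UMIs. These are the cells with 0 to 3 members seen, 21 of them with none, so a low TnC share follows in part from the split. Their 184 troponin UMIs were 99 of TnT, 82 of TnI and 3 of TnC, so TnC was 1.63% (Clopper-Pearson 95% interval 0.34 to 4.69). In the 27 cells with *Mylpf*, TnC was 948 of 2177, 43.5% (41.5 to 45.7). Both intervals pool UMIs over mice and cover counting error only, not the spread between mice. By mouse, TnC was 1.69%, 2.63% and 1.15% of troponin UMIs without *Mylpf*, and 50.2%, 41.8% and 40.5% with it.

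In CPM, which is relative to depth, TnC stood at 55.0, 66.8 and 27.5 CPM in the cells without *Mylpf* and at 15139, 12418 and 11839 CPM in those with it. TnT was at 1376, 1336 and 1486 CPM without *Mylpf* and 7661, 8170 and 10463 CPM with it. TnI was at 1816, 1135 and 881 CPM without and 7386, 9150 and 6902 CPM with it. As the cells with *Mylpf* are those with 4 or more members, higher troponin levels on that side follow from the split, and these values are a description with no test.

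The fast isoforms followed the same line. In cells without *Mylpf*, *Tnnt3* was 0 of 99 TnT UMIs (0 to 3.66%) and *Tnni2* 1 of 82 TnI UMIs, 1.22% (0.0309 to 6.61%). With *Mylpf*, *Tnnt3* was 10.9% (8.70 to 13.5) of 696 and *Tnni2* 28.9% (25.1 to 32.9) of 533. Within TnT the *Tnnt2* share was 83.8% (75.1 to 90.5) without *Mylpf* and 54.3% (50.5 to 58.1) with it, while the *Tnnt1* share was 16.2% (9.53 to 24.9) without and 34.8% (31.2 to 38.4) with it. By mouse the *Tnnt2* share with *Mylpf* was 52.1%, 66% and 53.9%, and the intervals here pool mice and cover counting error only. As cells with more members were the cells with *Mylpf*, differences in these shares follow in part from the split. They describe 1 division of the cells and carry no test.

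Other muscle genes ordered by the number of troponins seen (0, 1 to 3, 4 to 6, and 7 members) fell into separate patterns. *Myog*, the myogenic bHLH factor that drives differentiation, was at 6150, 7838, 2731 and 380 CPM pooled over mice. *Cdkn1c*, an inhibitor of cyclin-dependent kinases, was at 15184, 21646, 11890 and 4333 CPM. In each mouse both were lower in cells with 7 members than in cells with none: *Myog* at 630, 415 and 270 CPM against 4635, 5912 and 6657, and *Cdkn1c* at 3544, 4153 and 4686 against 17321, 16316 and 14054.

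*Mylpf* went the other way, from 0 and 0 to 6671 and 14832 CPM, as did the embryonic myosin heavy chain *Myh3* (0, 639, 4666 and 6835 CPM) and skeletal actin *Acta1* (34.7, 98.3, 1452 and 8421 CPM). Beta-tropomyosin, *Tpm2*, was at 591, 2113, 5738 and 5629 CPM. Cardiac actin *Actc1*, the actin of early muscle, was already at 2884 CPM in cells with no troponin UMI and at 5798, 6394 and 5071 CPM in the others. In mouse 2 it was lower with 7 members, at 1661 CPM from 2 cells, than with none, at 5084. *Myod1* was low throughout, at 208, 467, 380 and 179 CPM.

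Across the 76 cells, troponin UMIs per 1000 had a Spearman rho of 0.84 with *Mylpf*, 0.83 with *Myh3*, 0.82 with *Tpm2*, 0.77 with *Myl1* and 0.76 with *Acta1*, all per 1000. For *Myog* rho was −0.51, and −0.50, −0.51 and −0.51 within mice 1, 2 and 3. For *Actc1* it was 0.24 and for *Myod1* 0.07. For total UMIs of the cell it was 0.39, and 0.71, 0.07 and 0.45 by mouse. The points share libraries and differ in depth, so these values are descriptions without p.

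**Figure D4:**
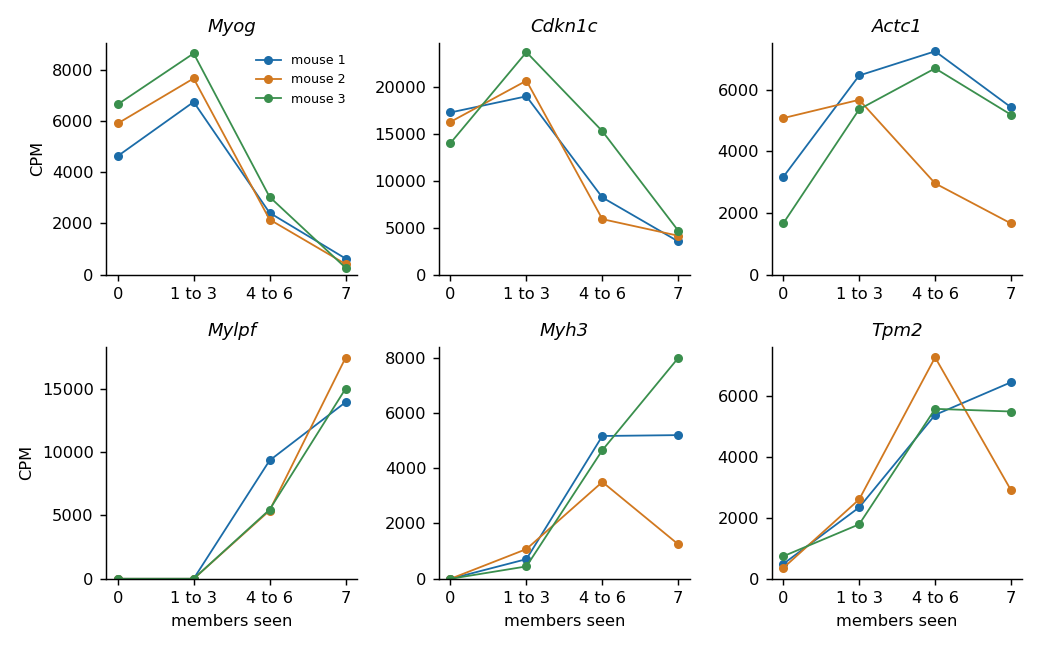
Level in CPM of 6 genes in muscle-like cells grouped by how many of the 7 troponin genes had a UMI (0, 1 to 3, 4 to 6, 7), 1 line per mouse. *Myog* and *Cdkn1c* are lowest at 7 members in each mouse, *Mylpf* is at 0 below 4 members, and mouse 2, with 2 cells at 7 members, departs from the others for *Actc1*, *Myh3* and *Tpm2*.

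The rest of the thin filament was mostly high in the same cells. Of 11 listed thin filament genes, 9 were tested, 7 were higher in muscle-like cells and 2 lower, with a median log2 fold change of 6.19 beside −0.16 over all genes tested. The higher ones were actins *Actc1* (8.07) and *Acta1* (6.19), tropomyosins *Tpm2* (7.06) and *Tpm1* (2.09), nebulin *Neb* (8.02), and the pointed-end proteins *Lmod3* (9.42) and *Tmod1* (4.83). Of these, *Lmod3* and *Neb* had 1 and 10 UMIs in all other cells and passed the filter on low counts through the muscle-like sums. *Tpm3* (−1.12, edgeR adjusted p = 0.013) and *Tpm4* (−2.41, edgeR adjusted p = 4.66e-05), tropomyosins that non-muscle cells also make, were lower. Without mouse 2 or mouse 3, *Tpm3* missed the threshold (adjusted p = 0.054 and 0.17).

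Slow and fast muscle genes outside the troponins were tested in the same fit, where 7.32% of all genes were higher and 11.7% lower. Genes rare in all other cells passed its filter through the muscle-like sums: there *Atp2a1* had 0 UMIs, *Myoz2* 3, *Csrp3* 4 and *Casq2* 6. The counts below therefore cannot be weighed against that background. Of 5 slow muscle genes tested, 4 were higher: *Csrp3* (7.27), *Casq2* (7.08), *Myoz2* (7.32) and *Mybpc1* (5.47), with *Atp2a2*, the calcium pump that neurons also express, at −0.37 (edgeR adjusted p = 0.65). Of 4 fast muscle genes tested, 3 were higher: the light chains *Myl1* (9.12) and *Mylpf* (7.74), and the calcium pump *Atp2a1* (9.70), with *Pvalb* at 1.19 (edgeR adjusted p = 0.20). The medians were 7.08 and 8.43. Slow *Myh7* had 25 UMIs in 7 of the 76 cells and fast *Myh4* 7 UMIs in 6, both too few for the test. Without mouse 3, *Atp2a1* and *Myoz2* did not pass the filter on low counts.

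The cardiac list, which does not hold *Tnnt2*, *Tnnc1* or *Actc1*, gave few UMIs. Of its 7 genes in the tables, 0 reached the test: *Myh6* had 10 UMIs, *Mybpc3* 5, *Nkx2-5* 2 and *Gata4* 1 in muscle-like cells, and *Tbx5*, *Hand2* and *Ryr2* had 0. Of 9 regulators of fibre type, 2 were tested: *Six4*, which favours fast genes, was higher (log2 fold change 4.01), and *Prox1* was at 0.01 (edgeR adjusted p = 0.99). *Six4* rested on 11 UMIs, and it did not pass the filter on low counts without mouse 3, with at least 1000 UMIs per cell, with no upper limit, with cells taken by 3 or more markers, or without the tenth of muscle-like cells with the most UMIs.

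Over 34 sums of UMIs (1 per mouse and cell group of at least 10 cells), the genes whose log2 levels were most like those of each member by Pearson's r were listed, 3 per member and members left out. For the TnT genes they were *Tpm2* (0.93), *Lmod3* (0.89) and *Igf2os* (0.89) for *Tnnt1*, *Apobec2*, *Chrna1* and *Lmod3* (each 0.98) for *Tnnt2*, and *Myh8* (0.96), *Myl1* (0.95) and *Igf2os* (0.93) for *Tnnt3*. For the TnI genes they were *Ttn* (0.98), *Chi3l1* (0.97) and *Tmem8c* (0.97) for *Tnni1*, and *Myl1* (0.95), *Ank1* (0.94) and *Traf3ip3* (0.94) for *Tnni2*. For the TnC genes they were *Klhl41* (0.90), *Ckm* (0.89) and *Myot* (0.89) for *Tnnc1*, and *Lmod3*, *Apobec2* and *Gm7325* (each 0.93) for *Tnnc2*. As the sums are shared and muscle-like sums stand apart, the values are descriptions.

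Outside the muscle-like cells troponin was sparse. Of 2297 other cells, 219 (9.53%) had a troponin UMI, 10 had 2 or more members and 1 had 3, the most seen. With each cell thinned to 500 UMIs the share, averaged over mice, was 3.69% ± 2.07 (SD, n = 3) against 8.78% ± 4.15 unthinned, while in muscle-like cells it was 64.8% ± 11.2 thinned and 71.2% ± 12.6 unthinned. The total level was 114, 44.3 and 73.6 CPM in mice 1, 2 and 3.

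The highest levels elsewhere lay in several groups and rested on few UMIs. *Tnnt1* was highest in pericyte-like cells, at 123 ± 53.4 CPM (SD, n = 3) from 3 UMIs, and *Tnnt3* in astrocyte-like cells, at 25.3 ± 26.5 CPM from 6 UMIs in 5 cells. *Tnni2* was highest in myeloid-like cells, at 107 ± 61.2 CPM from 5 UMIs in 5 of 49 cells, and *Tnnc1* also there, at 78.3 ± 70.9 CPM from 3 UMIs. *Tnnc2* reached 53.9 ± 33.7 CPM in the cluster left unnamed, and was the 1 member with a UMI in each of 11 groups. The mean over mice was at most 21.8 CPM for *Tnni1* and 13.3 CPM for *Tnnt2* in the groups outside muscle. The spread over mice is of the size of these levels, so their order is not settled by the data except that muscle-like cells lay above, by 9.65 times the next group for *Tnni2* and 222 times for *Tnnt2*.

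**Figure D5:**
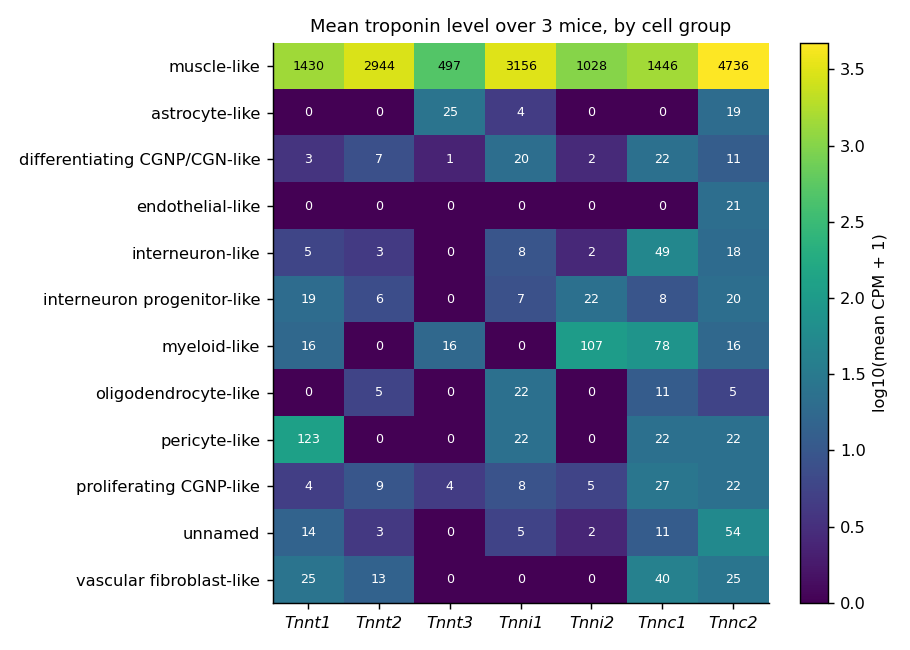
Mean level over 3 mice in CPM of each troponin gene (columns) in each cell group (rows), printed in the cell and coloured on a log10 scale after adding 1. Muscle-like cells range from 497 to 4736, and the highest other value is 123, for *Tnnt1* in pericyte-like cells.

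The 1194 cells of the granule lineage, where Cre is active, were compared with the 933 cells of the named groups outside it, a set without the muscle-like cells and the unnamed cluster. No troponin was called different, at few UMIs each. In proliferating and differentiating granule-lineage cells *Tnnc1* was at 24.9 ± 16.6 CPM (SD, n = 3, 40 UMIs) and outside at 22.5 ± 13.0 (23 UMIs), and *Tnnc2* at 17.9 ± 18 and 17.4 ± 18.4. *Tnni1* was at 12.5 ± 4.2 and 7.94 ± 6.90 CPM, and *Tnnt1* at 3.40 ± 3.35 and 11.7 ± 7.4. Over 7619 genes tested, 3.90% were higher and 8.79% lower in the granule lineage, but 0 members passed the filter on low counts. Without the filter edgeR tested 7 members and called 0, with 0 at an unadjusted p under 0.05 and adjusted p from 0.54 to 0.98. DESeq2 with the filter tested 0 members. So did the fit with the mouse as a block, so differences of these genes within mice were not tested.

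Of 30 listed genes within 100 kb of the members 12 were tested, and 2 were higher and 4 lower in muscle-like cells, where 7.32% of all genes tested were higher and 11.7% lower. Their median log2 fold change was −0.41, beside −0.16 over all genes tested. Those higher were *Csrp1* (log2 fold change 3.57), 27.2 kb from *Tnni1*, and *H19* (6.12), an imprinted noncoding RNA 59.5 kb from *Tnnt3*, which had 676 UMIs in muscle-like cells. The 4 lower were *Nt5dc2*, *Pltp*, *Ube2c* and *Ctsd*. Without mouse 1, *Nt5dc2* and *Pltp* missed the threshold, leaving 2; without mouse 3, *Pltp*, *Ube2c* and *Ctsd* did, leaving 1; and without mouse 2, *Pltp* did. With mice as blocks *Pltp* missed it too, with an adjusted p of 0.066, as it did with DESeq2 (0.080), with cells taken by 3 or more markers (0.057) and without the tenth of muscle-like cells with the most UMIs (0.089). *Ctsd* missed it in cells with at least 1000 UMIs (adjusted p = 0.11).

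A gene on the opposite strand overlaps 3 members: *Tnnc2* with *Ube2c*, *Tnnc1* with *Nisch* and *Tnnt3* with *Prr33*, and whether counting used strand is not given in the sources used here. In muscle-like cells *Tnnc2* had 721 UMIs and *Ube2c* 8. Among the 3 clusters of proliferating CGNP-like cells, *Ube2c*, a gene of dividing cells, was at 15.8, 183 and 1249 CPM and *Tnnc2* at 25.3, 23.2 and 24.6 CPM. *Tnnc1* had 230 UMIs and *Nisch* 14 in muscle-like cells, and elsewhere *Nisch* had 363 and *Tnnc1* 70. What reads of the overlapping genes add to these counts was not tested.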

How the data were processed

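Drop-seq counts from 3 mice were analysed. The authors deposited whole-number UMI counts for each gene in each cell barcode, not normalized; STAR and mm10 are named in the submitters' processing notes, and the gene counter and annotation are not given in the sources used here. The 3 tables hold 3693051 UMIs in 3481 barcodes (1401, 936 and 1144 per mouse).

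Cells with at least 500 UMIs and 200 genes, at most 4 SD above the mouse's median in both, and at most 10% of UMIs mitochondrial were kept. Doublets were limited by the upper bound alone, and no caller was run. Cells were clustered in Seurat 5.3.0 (R 4.3.3, sctransform 0.4.2, 3000 variable genes, 15 components, resolution 0.8). The 49 genes left out were the troponins and the listed genes of the thin filament, slow, fast, cardiac and fibre type lists. A cluster was named from at least 3 markers each found in 10% of the cluster and 2 times higher there than in the rest after adding 20 CPM; this rule was set after the clusters were seen. The members, lists and markers were chosen with earlier results of these data known.

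UMIs were summed per mouse and cell group and tested with edgeR 4.0.16 (TMM, filterByExpr, quasi-likelihood; threshold an adjusted p of 0.05), with DESeq2 1.42.0 as an alternative. p-values measure the spread between 3 mice, and pairs of mice differed by more than sampling noise (chi-square per degree of freedom 2.91 to 5.72). The 2 sums compared within a mouse share 1 library, so the mice pair the samples: deviations from the group means correlated at 0.13, 0.11 and 0.23 for muscle-like against other cells and 0.27, 0.20 and 0.38 for the granule lineage against cells outside it. On simulated data the test recovered 66.7% of tested genes changed 4 times in the first comparison (5846 genes simulated) and 94.4% in the second (7619 genes). Over all 200 changed genes, by 2 or 4 times and with those that missed the filter, it recovered 35.5% and 58%. The simulated sums of a mouse were drawn independently, unlike the paired sums of the data. Genes named in the text are the members, the list genes tested, the 3 genes most like each member, and the neighbours past the threshold; list genes too low to test, the overlapping genes *Nisch* and *Prr33*, *Cdkn1c* and other genes set by members seen, including *Mylpf* as a split, were named after their values were seen. Motifs were searched on both strands.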

Additional observations from a re-analysis of the deposited data

Results flagged for a closer look

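Barcodes that the filters removed held troponin. The 35 barcodes left out only by the upper limit on UMIs and genes held 740 troponin UMIs, and 4 of them, 2 each in mice 1 and 2, had UMIs of all 7 members with 137 to 228 troponin UMIs each among 3633 to 7777 in all. These 4 were picked for their many troponin UMIs. Pooled, their *Tnnc1* was 51.2% (Clopper-Pearson 95% interval 45.7 to 56.6) of 342 TnC UMIs, beside 27.0% (23.9 to 30.2) of 789 in the 13 retained cells with all 7 members. The intervals cover counting error only. By barcode *Tnnc1* and *Tnnc2* had 38 and 57, 62 and 37, 28 and 43, and 47 and 30 UMIs. Single retained cells overlapped these, as 1 had 47 and 60, so no difference is concluded. The 1056 barcodes under 500 UMIs held 112 troponin UMIs, 3 of them with 4 or more members. No control sample sets a level for these barcodes, and whether any holds more than 1 cell was not tested.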

How the results depend on the processing

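Each of the 7 members kept its direction and stayed past the threshold in all 14 alternatives (other size factors, DESeq2, no filter on low counts, mice as replicate blocks, each mouse left out, and other definitions of cells), with log2 fold changes from 5.35 for *Tnnc1* to 9.02 for *Tnnt2*; the fit with the mouse as a block called 7 of 7. Beyond *Pltp*, the block changed no other call among the list and neighbouring genes. Leaving out 1 mouse gave 1 to 2 lower list genes (2 with all mice) and 1 to 3 lower neighbours (4 with all mice). Muscle-like cells taken by 3 or more markers without clustering gave 1 lower list gene. List genes higher numbered 20 without the filter, against 15. In cells with at least 1000 UMIs, all 7 members were seen in 27.7% of muscle-like cells, all 3 subunits in 44.4%, and TnT and TnI without TnC in 29.1%; thinned to 500 UMIs, all 7 were seen in 6.44%, TnT and TnI without TnC in 15.3%, and 3.69% of other cells had a troponin UMI. The *Tnnc2* share of TnC was 66.7% with no upper limit and 82.9% with equal weight per cell, and the *Tnni2* share of TnI 16.6% with equal weight and 17.4% without the tenth of muscle-like cells with the most UMIs. Fast isoform without slow, for TnT and TnI together, was seen 1 time, 0 times in cells with at least 1000 UMIs or with 3 or more markers, 0 to 1 times without 1 mouse, and 3 times after thinning. The cause of these moves was not tested. With 27, 21 and 28 muscle-like cells per mouse at a median of 1362.5 UMIs, a member that was not seen in a cell may have been present.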
